A study of Mus musculus with 12 samples.

Results

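Long intergenic noncoding RNAs (lincRNAs) that lie close to a protein-coding gene were measured by microarray in the mouse macrophage line RAW264.7. A lincRNA region is an interval that the array's design annotates as a lincRNA and probes on 1 strand; its name gives its mm9 coordinates and its strand. Of the 4607 strand-specific lincRNA regions on the array, 1974 lay within 20 kb of the nearest probe of a coding transcript (a RefSeq accession beginning with NM_), after 192 regions on the sex chromosomes or in 3 other places were set aside. These 1974 regions covered 1450 intervals, 524 of them on both strands, and carried 7479 probes of 60 bases, with 1 to 10 and a median of 3 per region. They had 868 nearest genes between them, up to 12 regions to a gene, so regions of a gene are not independent of each other. A further 2441 regions lay farther from any such probe. Distances, upstream and downstream are given from the probe and not from the ends of the gene, so a region may overlap its nearest gene.

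The 12 arrays fell into 4 groups of 3. All cells were RAW264.7 and all received an siRNA for 24 h: a scrambled control siRNA, or an siRNA to lincRNA-Tnfaip3. Each siRNA group was then cultured for a further 4 h without or with lipopolysaccharide (LPS) of E. coli at 1 µg/ml. Whether the 3 samples of a group were separate cultures is not given in the labels, so p-values rest on a spread between samples that may be only technical. The annotated lincRNA region nearest to Tnfaip3 lay 615895 bp from it, and no probe named for the siRNA's target was used, so the knockdown was not checked here. In bulk RNA, fewer cells of a type and less RNA per cell cannot be told apart.

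LPS, from the outer membrane of Gram-negative bacteria, is recognised by Toll-like receptor 4, which starts NF-kB signalling and the production of type I interferon. Interferon then raises a set of antiviral genes. Noncoding transcripts near such genes can be separate RNAs, transcripts of the opposite strand, or unannotated extensions of the gene itself, and an array probe reads only the strand and place it was designed for.

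The arrays lay on 3 slides, and slide 1 held control siRNA arrays 1 and 2, slide 3 held lincRNA siRNA with LPS arrays 2 and 3, and slide 2 held the other 8. On slide 1, 64.2% and 72.2% of the 1974 regions had a probe well above background, against 79.7% to 86.3% on slide 2 and 80.2% to 85.3% on slide 3. Of the macrophage markers on the array, 14 of 15 were detected on each array, Csf1r, Cd14 and Spi1 among them. Markers of other cell types were detected too, and their part in the results was not tested. They were 2 to 4 of 4 T cell, 1 to 3 of 4 B cell, 2 to 3 of 5 fibroblast, 0 to 1 of 4 epithelial, 2 to 3 of 4 endothelial, 1 of 2 erythroid, 3 to 4 of 4 dendritic cell and 3 to 4 of 4 granulocyte genes.

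Values below are scaled intensities: the processed spot intensity after each array was scaled to the same 75th percentile, 385. A region or gene was tested when a probe exceeded background well on each of the 3 arrays of a group, and its probe with the highest mean stood for it. This left 1581 of the 1974 regions (80.1%), and the nearest gene was measured for 1373 of these, 656 genes in all. For the regions farther away, 1807 of 2441 (74.0%) were tested. A region or gene is said to pass, rise or fall when its adjusted p from limma, with Benjamini-Hochberg adjustment over all 23931 regions, genes and other transcripts tested, was below 0.05. Changes are given on the log2 scale with a standard error (SE).

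The sequences that carry the clearest changes are shown first, as the probes that measured them, 5′ to 3′ in the orientation of the array's annotation. Capitals mark stretches of at least 20 bases that a probe shares, on either strand, with a probe of another region or gene. The first set holds the probes of regions whose nearest gene changed the same way with LPS.
Trim30a, reverse strand region: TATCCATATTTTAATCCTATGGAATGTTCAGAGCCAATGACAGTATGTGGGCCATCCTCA
Samd9l, reverse strand region: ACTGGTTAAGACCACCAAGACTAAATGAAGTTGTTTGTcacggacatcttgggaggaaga
Samd9l, forward strand region: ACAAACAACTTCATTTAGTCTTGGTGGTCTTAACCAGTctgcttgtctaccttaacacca
Herc6, forward strand region: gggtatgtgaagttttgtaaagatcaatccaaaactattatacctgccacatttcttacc
Jmy, reverse strand region, longer: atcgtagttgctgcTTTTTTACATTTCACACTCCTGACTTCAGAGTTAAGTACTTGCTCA
Jmy, reverse strand region, shorter: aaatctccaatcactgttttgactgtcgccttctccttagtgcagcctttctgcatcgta
Zfp652, reverse strand region: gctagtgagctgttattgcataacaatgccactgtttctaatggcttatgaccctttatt
Cdkn1b, forward strand region: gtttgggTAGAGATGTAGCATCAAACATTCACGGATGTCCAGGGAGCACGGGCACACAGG
The second set holds 5 of the regions that rose while the nearest coding gene did not pass.
Slc26a11, forward strand region, farther: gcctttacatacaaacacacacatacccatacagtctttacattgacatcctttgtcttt
Slc26a11, forward strand region, nearer: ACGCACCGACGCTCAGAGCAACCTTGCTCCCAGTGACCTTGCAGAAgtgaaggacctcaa
Ccdc6, reverse strand region: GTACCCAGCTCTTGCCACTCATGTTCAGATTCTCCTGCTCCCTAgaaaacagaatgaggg
H2ac15, reverse strand region: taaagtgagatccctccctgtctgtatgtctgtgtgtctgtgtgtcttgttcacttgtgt
Cuedc2, forward strand region: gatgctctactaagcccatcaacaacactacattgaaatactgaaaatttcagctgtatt
The third set holds a probe of a second reverse strand region at Trim30a, chr7:111530578-111539097, and the probe of the Tnrc18 region; each is shown for the bases it shares with a probe that the array assigns to a coding gene.
Trim30a, second reverse strand region: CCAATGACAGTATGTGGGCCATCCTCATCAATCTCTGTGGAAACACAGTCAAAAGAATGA
Tnrc18, reverse strand region: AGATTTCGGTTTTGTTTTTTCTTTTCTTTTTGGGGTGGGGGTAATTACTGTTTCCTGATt
The second Trim30a region's probe is the same 60 bases as the array's probe of Trim30c, a neighbouring gene of the same family. The Tnrc18 region's probe shares 59 bases with a probe of Tnrc18 itself. The probe of the first Trim30a region overlaps the Trim30c probe by 27 bases, so at these places the lincRNA and the coding transcript cannot be told apart by the shared bases. No probe of these regions shared more than 8 bases with the probe that stood for its nearest gene. Only the probes were compared, not a probe with the gene's transcript, so this does not show that their signals are separate.

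LPS with control siRNA changed 34 of the 1581 tested regions, 24 upwards and 10 downwards. That is 2.15% of them, against 5.13% of all features tested in that comparison (3.25% higher and 1.88% lower); the difference between these shares was not tested. Regions farther from coding genes passed at 1.99%, 33 higher and 3 lower. The 34 regions lay at 30 separate places. Rises ran from 0.42 to 4.65 with a median of 1.45, and falls from -0.39 to -0.83 with a median of -0.58. Over all tested regions the median change was 0.23, and over all features 0.06. With slide as a block in the fit these medians were 0.08 and -0.05. Background correction by normexp gave 0.04 and -0.01. Scaling by each array's median instead moved these medians to -0.04 and -0.22, and the calls to 17 higher and 21 lower. When the tested regions were ordered by mean level into 3 classes of 527, the median change was 0.47 in the dimmest, 0.27 in the middle and 0.08 in the brightest class. The dimmest class held 6 rises and 0 falls, the middle 8 rises and 1 fall, and the brightest 10 rises and 9 falls. By distance, 7 of 185 regions with the gene's probe inside passed (3.78%), 11 of 550 within 5 kb (2.00%), 5 of 358 from 5 to 10 kb (1.40%) and 11 of 488 from 10 to 20 kb (2.25%).

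**Figure D1:**
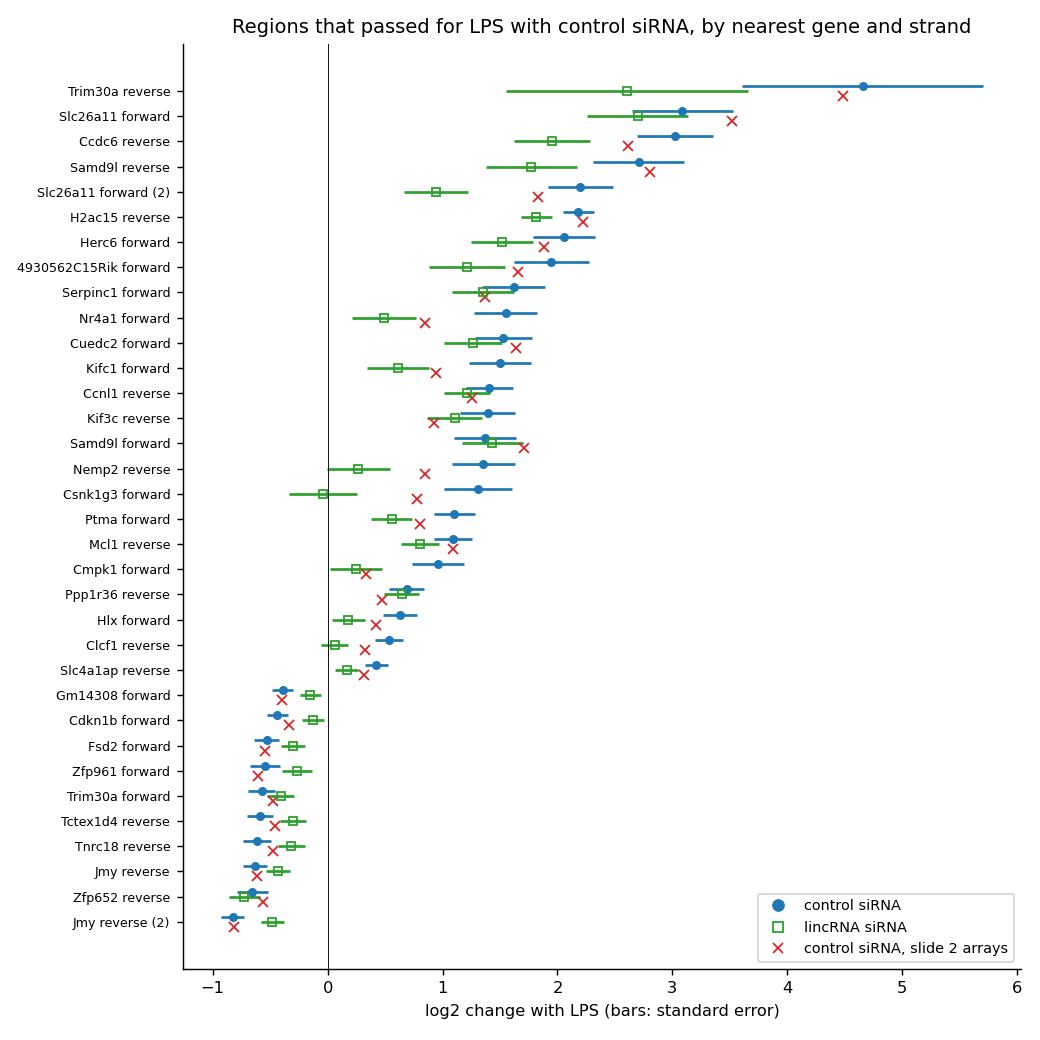
Log2 change with LPS of the 34 passing regions, named by nearest gene and strand, with control siRNA (filled circles) and lincRNA siRNA (open squares), bars showing the standard error, and within slide 2 (crosses). All 34 lie on the same side of 0 within slide 2 as over all arrays, which was fixed by choosing them on these arrays. With lincRNA siRNA, 33 of 34 lie on that side.

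Slide and group were partly confounded in this comparison, since 2 of the 3 unstimulated control arrays made up slide 1. In 16 of the 24 rising regions, control array 3, on slide 2, was the highest of the 3 controls. With slide as a block, which rests on the slide 2 arrays, 2 regions passed, and 1 of them was among the 34. Within slide 2 alone 1 region passed. All 34 kept their direction there. This was fixed by the choice of regions, since in each of them the LPS arrays already lay apart from control array 3. The median rise was 1.18 in place of 1.45, and the median fall -0.51 in place of -0.58. Of the 34 regions, 15 passed whichever 1 array was left out. The regions at Trim30a (both strands), Zfp652, Cdkn1b, Nr4a1 and Kifc1 and the forward strand one at Samd9l were among the 19 that did not. The number of regions that passed was 16 without control siRNA array 1, 17 without array 2 and 229 without array 3, and it was 18 without array 2 of control siRNA with LPS and 18 without array 3. The change within slide 2 is given beside most of the passing regions that follow, and the block's adjusted p beside some of them.

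The region that rose most was chr7:111526943-111545093 on the reverse strand, 12485 bp downstream of the probe of Trim30a, an interferon-induced gene of the tripartite motif family. Its scaled intensity was 4.66, 13.2 and 9.34 on the control arrays and 85.8, 343 and 313 with LPS. The LPS arrays did not overlap the controls, and array 1 was the lowest of the 3 with LPS. The change was 4.65 (SE 1.05, adjusted p = 0.0339 by limma; 4.49 within slide 2, adjusted p = 0.485 with slide as a block). Trim30a itself measured 6.33, 15.3 and 9.35 on the control arrays, none well above background, and 116, 507 and 496 with LPS, which is at least 28.1-fold higher. The region's probe was well above background on 9 of the 12 arrays, so the size of both changes is limited by background in the controls and no difference between them is given. With normexp background correction, which models the local background, the region's change was 2.02 (adjusted p = 0.0175). Its adjusted p was 0.0524 to 0.138 when control array 1 or 2, LPS array 2 or 3, or any 1 array of lincRNA siRNA with LPS was left out. The region rests on 1 probe. The neighbouring region chr7:111530578-111539097, also on the reverse strand, did not pass (0.45, SE 0.23), with 20.3, 21.3 and 22.2 on the control arrays and 27.7, 30.8 and 28.9 with LPS, and its 2 measured probes gave 0.45 and 2.08. The Trim30c probe of the same 60 bases, looked up after these values were seen, gave 1.41 (SE 0.58, adjusted p = 0.178), with 15.8, 5.05 and 26.7 and then 24.1, 23.6 and 70.2. These are spots of 1 sequence, and they lay apart most on control array 2 and on array 3 with LPS. On the forward strand of the first interval the change was -0.57 (SE 0.12, adjusted p = 0.0222; -0.48 within slide 2, blocked adjusted p = 0.452), with 960, 851 and 817 on the control arrays and 627, 623 and 519 with LPS. The groups did not overlap. Its 4 measured probes gave -0.57, -0.38, 0.68 and 0.98, and with the mean of all 4 the region's change was 0.18. This forward region was the one region that passed in the direction opposite to its gene.

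Both strands of chr6:3333825-3349525 rose. This interval lies 11246 bp upstream of the probe of Samd9l, an interferon-induced growth regulator. Whether the interval lies within the gene was not tested, so RNA of Samd9l itself cannot be told apart from a separate RNA here. The reverse strand, the strand of the gene, measured 50.6, 62.6 and 51 without LPS and 283, 336 and 473 with LPS, a change of 2.71 (SE 0.40, adjusted p = 0.00394; 2.8 within slide 2, blocked adjusted p = 0.133). The forward strand measured 15.8, 32.6 and 16 and then 43, 50.7 and 65.4, a change of 1.37 (SE 0.27, adjusted p = 0.0176; 1.71 within slide 2, blocked adjusted p = 0.134). On both strands the LPS arrays lay above all controls. The 2 probes share 38 bases as reverse complements, so they read opposite strands of 1 short stretch. Samd9l measured 769, 864 and 716 and then 5000, 5700 and 5170, a change of 2.76 (SE 0.34, adjusted p = 0.00146). The gene's adjusted p was 0.0692 with slide as a block. The reverse strand differed from the gene by -0.05 (SE 0.23), and the forward strand by -1.39 (SE 0.38, 95% confidence interval -2.23 to -0.54, adjusted p = 0.11 over all pairs). The forward strand's probe was well above background on 11 of the 12 arrays. With normexp background correction the forward strand was at 0.33 (adjusted p = 0.254) and no longer passed, and the reverse strand was at 1.77 (adjusted p = 0.0021).

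The region chr6:57560819-57569928 on the forward strand holds the probe of Herc6, an interferon-induced ubiquitin ligase of the HERC family on the same strand. It measured 6.53, 5.08 and 6.87 without LPS, where no probe of it was well above background, and 19.5, 26.5 and 31.8 with LPS. It was at least 3.18-fold higher with LPS (fitted change 2.06, SE 0.27, adjusted p = 0.00211; 1.89 within slide 2, blocked adjusted p = 0.0971). Its 2 measured probes gave 2.06 and 2.17. With normexp background correction it was at 0.28 (adjusted p = 0.35) and did not pass. Herc6 measured 121, 113 and 89.9 and then 557, 583 and 503 (2.35, SE 0.23, adjusted p = 3.67e-04).

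**Figure D2:**
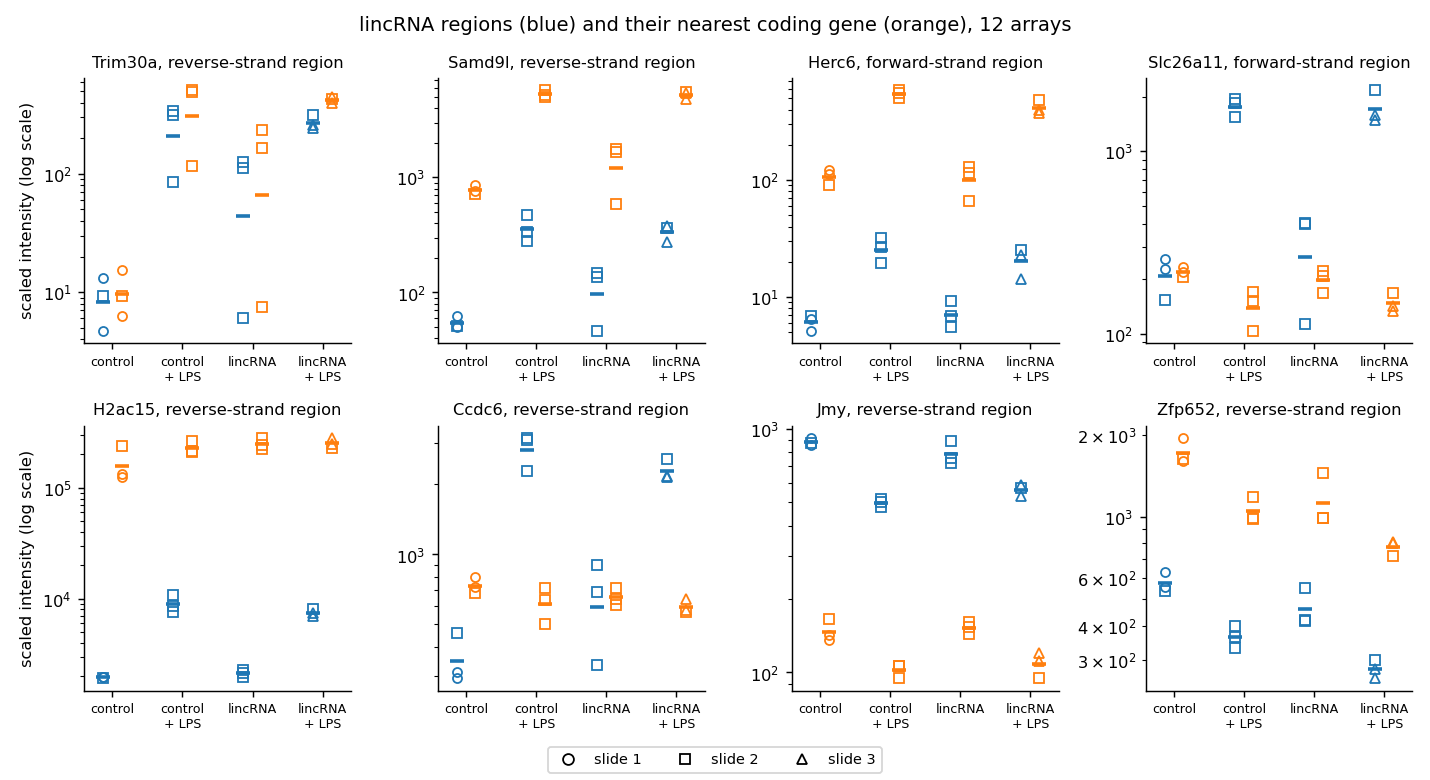
Scaled intensity (log axis) on each array of 8 passing regions (blue) and their nearest coding gene (orange) in the 4 groups; symbols give the slide and bars the geometric mean of 3 arrays. With control siRNA, the Trim30a, Samd9l and Herc6 regions rise with their gene under LPS, and the Jmy and Zfp652 regions fall with theirs. The Slc26a11, H2ac15 and Ccdc6 regions rise and their gene does not pass. With lincRNA siRNA the genes Trim30a, Jmy and Zfp652 do not pass.

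Regions that fell with their gene did so by less than 1 on the log2 scale. Of the 9 tested regions whose nearest gene is Jmy, a cofactor of p53 that also nucleates actin, the overlapping reverse strand regions chr13:94182877-94203935 and chr13:94200051-94200598 fell. The longer one measured 919, 856 and 872 without LPS and 514, 499 and 478 with LPS (-0.83, SE 0.10, adjusted p = 0.00124; -0.81 within slide 2, blocked adjusted p = 0.067). The shorter one measured 1380, 1220 and 1280 and then 858, 893 and 759 (-0.63, SE 0.10, adjusted p = 0.00713; -0.62 within slide 2). All 7 probes of both regions lay below 0, but the longer region's probe shares 46 bases with a probe of the shorter one, so the 2 are not separate measurements. Jmy, on the same strand, measured 136, 142 and 165 and then 106, 95.1 and 106 (-0.53, SE 0.12, adjusted p = 0.0335). Homer1, a neighbour with a probe at chr13:94174815 that was looked up afterwards, did not fall. It was at 0.56 (SE 0.15, adjusted p = 0.0622 by limma).

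At Zfp652, a zinc finger repressor, the probe that stood for the gene was at chr11:95633588. That place is inside the reverse strand region chr11:95627874-95640824. This region lies opposite the gene and 2006 bp downstream of its nearest probe with an NM_ accession. It measured 631, 555 and 538 without LPS and 398, 364 and 333 with LPS (-0.66, SE 0.13, adjusted p = 0.0232; -0.56 within slide 2, blocked adjusted p = 0.428). All 7 measured probes were lower with LPS, from -0.35 to -1.21. Zfp652 measured 1950, 1600 and 1630 and then 1180, 995 and 982 (-0.72, SE 0.16, adjusted p = 0.0344). At Cdkn1b, the cyclin-dependent kinase inhibitor p27, the forward strand region chr6:134875724-134931975 begins 241 bp past the gene's probe on the gene's strand. It measured 373, 335 and 317 and then 260, 253 and 243 (-0.44, SE 0.09, adjusted p = 0.0277; -0.33 within slide 2, blocked adjusted p = 0.483). Cdkn1b fell by 0.66 (SE 0.08, adjusted p = 0.00146) from 2080, 2110 and 2160 to 1380, 1360 and 1290. In each of these pairs the LPS arrays of region and gene did not overlap the controls.

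In all, 8 regions passed in the same direction as their nearest gene, 4 higher and 4 lower. Of the 8, 6 lay on the gene's strand, beside 745 of all 1373 pairs, and the difference was not tested. Both overlapping Jmy regions are among the 6, so this count is not read as a result about strand. The 8 regions are 25.8% of the 31 passing regions with a measured gene and 8.08% of the 99 pairs whose gene passed. With slide as a block 0 pairs passed on both sides, and of the 6 genes Herc6 and Cdkn1b passed (adjusted p = 0.0141 and 0.0483). Without control siRNA arrays 1, 2 and 3 the count was 2, 3 and 30, without array 2 or 3 of control siRNA with LPS 2, and without array 2 of lincRNA siRNA with LPS 4.

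Among the 31 passing regions with a measured gene, the gene did not pass for 18 of the 22 that rose and 4 of the 9 that fell. The Tnrc18 region is 1 of these 4. Its probe shares 59 bases with a probe of Tnrc18, so there the region cannot be told apart from the gene. Among the rises were 2 overlapping forward strand regions downstream of Slc26a11, a sulphate and anion transporter. The farther one, chr11:119254413-119296960, measured 227, 256 and 154 without LPS and 1540, 1930 and 1840 with LPS (3.09, SE 0.44, adjusted p = 0.00326; 3.52 within slide 2, blocked adjusted p = 0.0625), and its 3 probes gave 3.09 to 3.4. The nearer one, chr11:119250824-119286324, measured 52.1, 57.5 and 80.3 and then 199, 302 and 389 (2.2, SE 0.28, adjusted p = 0.00172; 1.83 within slide 2, blocked adjusted p = 0.122), and its 3 probes gave 1.07 to 2.2. Slc26a11 measured 232, 217 and 206 and then 103, 170 and 151 (-0.66, SE 0.19, adjusted p = 0.0778). The region's change exceeded the gene's by 3.75 (SE 0.38, adjusted p = 6.90e-04; 0.0253 with slide as a block) and 2.86 (SE 0.27, adjusted p = 4.46e-04; 0.0253 with slide as a block). A neighbour looked up after these values were seen moved with the regions. A probe at chr11:119291535, inside the farther region and on its strand, belongs to an Ensembl transcript of Rnf213, by the array's description, a large ubiquitin ligase of the RING finger family. It rose by 1.61 (SE 0.28, adjusted p = 0.00988), and a second such transcript with a probe at chr11:119348605 rose by 2.05 (SE 0.40, adjusted p = 0.0174); with slide as a block their adjusted p were 0.188 and 0.239. Neither carries an NM_ accession, so neither could be the nearest gene by the rule.

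The reverse strand region chr13:21856097-21859200 lies in a histone cluster, 10401 bp upstream of the probe of the histone gene H2ac15. It measured 1990, 1970 and 1910 without LPS and 10800, 7540 and 8610 with LPS. The change of 2.18 (SE 0.13, adjusted p = 2.61e-05) was 2.22 within slide 2 and passed with slide as a block too (adjusted p = 0.00507). Of the 34 regions, no other did so. H2ac15 measured 125000, 134000 and 240000 and then 214000, 210000 and 262000, with groups that overlap (0.52, SE 0.23, adjusted p = 0.205). The gene's other measured probe had the opposite sign, at -0.15. The region exceeded the gene by 1.67 (SE 0.30, adjusted p = 0.0184). The region rests on 1 probe.

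At Ccdc6, a coiled-coil protein gene, the reverse strand region chr10:69669025-69686275 measured 313, 293 and 461 without LPS and 2280, 3110 and 3180 with LPS (3.02, SE 0.33, adjusted p = 6.65e-04; 2.62 within slide 2, blocked adjusted p = 0.0621). Its other 2 measured probes gave 0.24 and 0.92, so the size rests on the brightest probe. With the mean of its probes the change was 1.39 and missed the threshold (adjusted p = 0.0546). The forward strand of the same interval was at 0.00 (SE 0.38), with other probes at -0.35, -0.87 and -0.81, and Ccdc6 at -0.27 (SE 0.14). The other measured probe of Ccdc6 had the opposite sign, at 0.52. The forward strand region chr19:46419916-46421753, opposite to and upstream of Cuedc2, measured 185, 130 and 138 and then 415, 518 and 369 (1.53, SE 0.25, adjusted p = 0.00697; 1.64 within slide 2, blocked adjusted p = 0.159), and its 3 probes gave 1.35 to 1.53. Cuedc2, which binds ubiquitin, was at -0.12 (SE 0.09), and the region exceeded it by 1.65 (SE 0.29, adjusted p = 0.0143; 0.242 with slide as a block). Nfkb2, an NF-kB subunit gene farther along the chromosome and looked up after the region's values were seen, rose by 1.17 (SE 0.15, adjusted p = 0.00143; 0.067 with slide as a block).

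In several smaller rises 1 probe stood apart from the region's other probes. The forward strand region chr16:4867322-4874772 holds a probe of 4930562C15Rik and rose by 1.95 (SE 0.33), with other probes at -0.54 and 0.47 and a mean of probes at 0.63. The region chr15:101084597-101095097, upstream of the orphan nuclear receptor gene Nr4a1, rose by 1.55 (SE 0.28; 0.85 within slide 2) with other probes down to -0.83 and a mean of probes at 0.27, while Nr4a1 was at 0.05 (SE 0.10). The region chr17:33995525-34028025, opposite the kinesin gene Kifc1, rose by 1.5 (SE 0.27; 0.94 within slide 2) with 8 probes from -0.29 to 1.5 and a mean of probes at 0.46. Daxx, a transcriptional corepressor gene with a probe at chr17:34052404 that was looked up afterwards, rose by 1.79 (SE 0.11, adjusted p = 3.27e-05; 0.0063 with slide as a block). In contrast, the region chr3:65729664-65731697, 19126 bp downstream of the cyclin gene Ccnl1, rose by 1.41 (SE 0.20; 1.26 within slide 2) on both measured probes (1.41 and 1.49), and Ccnl1 was at 0.32 (SE 0.11). The region chr1:162933979-162944379, 1355 bp downstream of the antithrombin gene Serpinc1, rose by 1.62 (SE 0.27; 1.37 within slide 2) on probes from 0.02 to 1.62 with a mean at 0.97, and Serpinc1 was at 0.02 (SE 0.14). The 4 of these regions with a mean of probes given did not pass with it. Other neighbours were looked up afterwards too. Grasp, with a probe at chr15:101063123 near the Nr4a1 region, rose by 1.06 (SE 0.20, adjusted p = 0.014 by limma, 0.277 with slide as a block). Zbtb37, with a probe inside the Serpinc1 region on the other strand, was at -0.34 (SE 0.18). Gas5, with a probe at chr1:162968608, was at 0.07 (SE 0.20). Neither Zbtb37 nor Gas5 passed. Of the 24 passing regions with more than 1 measured probe, all probes lay on the same side of 0 in 18. The other rises were at Kif3c (1.39, SE 0.24), Nemp2 (1.35, SE 0.28), Csnk1g3 (1.31, SE 0.30), Ptma (1.1, SE 0.18), Mcl1 (1.09, SE 0.17), Cmpk1 (0.96, SE 0.23), Ppp1r36 (0.69, SE 0.15), Hlx (0.63, SE 0.15), Clcf1 (0.54, SE 0.12) and Slc4a1ap (0.42, SE 0.10). Within slide 2 these changes were, in the same order, 0.93, 0.85, 0.78, 0.80, 1.1, 0.33, 0.47, 0.42, 0.33 and 0.32. The Mcl1 region, upstream of a survival gene of the BCL2 family, was not well above background without LPS and at least 1.92-fold higher with it; with normexp background correction its change was 0.077 (adjusted p = 0.801). The Cmpk1 region's other probe was at -1.02, and the mean of both probes gave -0.027. With normexp background correction the Nemp2, Csnk1g3 and Hlx regions were at 0.13, 0.11 and 0.047 and did not pass. Those at Cmpk1, Clcf1 and Slc4a1ap did not pass with it either. With lincRNA siRNA the Csnk1g3 region was at -0.04 (SE 0.30). The remaining falls were at Tnrc18 (-0.61, SE 0.12), Tctex1d4 (-0.59, SE 0.11), Zfp961 (-0.55, SE 0.13), Fsd2 (-0.53, SE 0.11) and Gm14308 (-0.39, SE 0.09). Within slide 2 these falls were, in the same order, -0.47, -0.46, -0.60, -0.55 and -0.39. The probe that stood for the gene Tnrc18, at chr5:143516536, gave -0.29 (SE 0.14), and the gene's other measured probe -0.575.

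**Figure D3:**
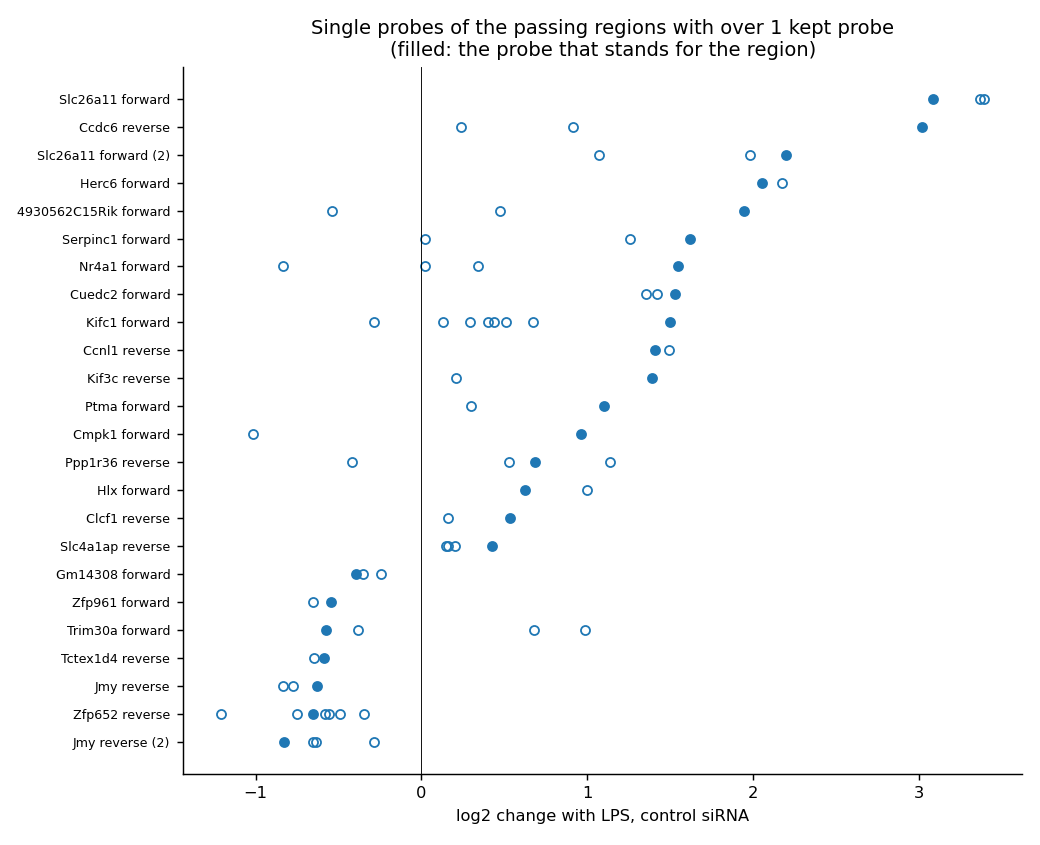
Log2 change with LPS (control siRNA) of each measured probe of the 24 passing regions with more than 1 measured probe, named by nearest gene and strand; filled points stand for the region. The probes of the farther Slc26a11 region, Cuedc2, Ccnl1, Jmy and Zfp652 lie together, while those of Ccdc6, Nr4a1, Kifc1 and the forward strand Trim30a region spread widely.

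Seen from the genes, 47 of the 656 measured nearest genes passed (7.16%, beside 5.13% of all features), 25 higher and 22 lower, and 6 of these had a passing region. Of the 47, 11 passed with slide as a block. The 56 regions whose gene rose had a median change of 0.31, and the 43 whose gene fell 0.02, beside 0.23 over all tested regions. Isg15, the ubiquitin-like interferon-induced modifier, rose from 2310, 3340 and 2670 to 88300, 33800 and 78900 (4.49, SE 0.61, adjusted p = 0.00259; 0.116 with slide as a block). None of its 4 regions passed; their changes ran from 0.15 to 1.43. The nearest, chr4:155564927-155571580 on the gene's strand and 1953 bp downstream, measured 124, 166 and 73.9 without LPS and 99.5, 166 and 126 with LPS, so the groups overlapped. Its 3 probes gave 0.15 to 2.2, and their mean 1.1 (adjusted p = 0.0169 by limma). Region minus gene was -4.34 (SE 0.69, adjusted p = 0.00928; 0.416 with slide as a block). Irf1, an interferon regulatory factor, rose from 730, 779 and 710 to 5560, 8540 and 8480 (3.32, SE 0.26, adjusted p = 1.04e-04; 0.0112 with slide as a block). Of its 4 regions none passed, and the one that begins 1070 bp downstream, chr11:53592946-53637922, was at 0.32 (SE 0.32) on the gene's strand and -1.46 (SE 0.70) on the other. Both fell short of Irf1 (differences -3 and -4.78, adjusted p = 0.00265 and 0.00213; 0.0838 and 0.0797 with slide as a block). The other probes of the opposite strand region gave -0.02, 1.25 and 0.21, so the size of -4.78 rests on the probe at -1.46.

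None of the other genes described here had a passing region. Cd69, an early activation antigen of leukocytes, rose by 3.23 (SE 0.42; adjusted p = 0.1 with slide as a block) with 2 regions at -0.22 and 0.49. Socs3, a feedback inhibitor of cytokine signalling, rose by 1.58 (SE 0.16) with 5 regions from 0.11 to 0.81. Dusp5, a phosphatase of MAP kinases, rose by 1.59 (SE 0.15) with 1 region at 0.82. Pdgfb, a growth factor, rose by 1.77 (SE 0.14) with 2 regions at -0.05 and 0.43. Among falling genes, Trp53inp1, a p53 target, fell by 1.15 (adjusted p = 0.0528 with slide as a block) with its region at 0.15, and Tmem51 fell by 1.5 with its region at -0.09.

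Of 140 genes in lists of cytokines and chemokines, NF-kB feedback, the interferon response, immediate-early genes, effectors and macrophage transcription factors, 14 were the nearest gene of a region. They had 37 regions, 31 of them tested, with a median change of 0.34, and 1 region, at Nr4a1, passed upwards. Beside 2.15% of all tested regions and 5.13% of all features, counts this small are not read as a result about the lists. No gene of the cytokine and chemokine list was the nearest gene of a region. The 2 NF-kB feedback genes, Nfkbia and Socs3, had 7 tested regions, of which 0 passed. The interferon list gave Isg15 and Irf1 with 8 tested regions, of which 0 passed, and 1 of 14 immediate-early regions did. The effector list gave 1 tested region, at Sod2 (0.63), and the transcription factor list 1, at Hivep3 (-0.33). Of the macrophage markers, Fcgr1, an Fc receptor gene, had 4 tested regions, of which 0 passed.

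Across the 1373 pairs, the changes of region and gene were compared directly. They differed in 20 pairs (1.46%), against 1.73% of the 2837 pairs at any distance; the region was above the gene in 7 and below it in 13. In 13 of the 20 the gene alone had passed, in 6 the region alone, and in 1 both. With slide as a block 5 pairs differed. Without array 3 of the control group 99 pairs differed, without array 2 of control siRNA with LPS 12 and without its array 3 9.

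**Figure D4:**
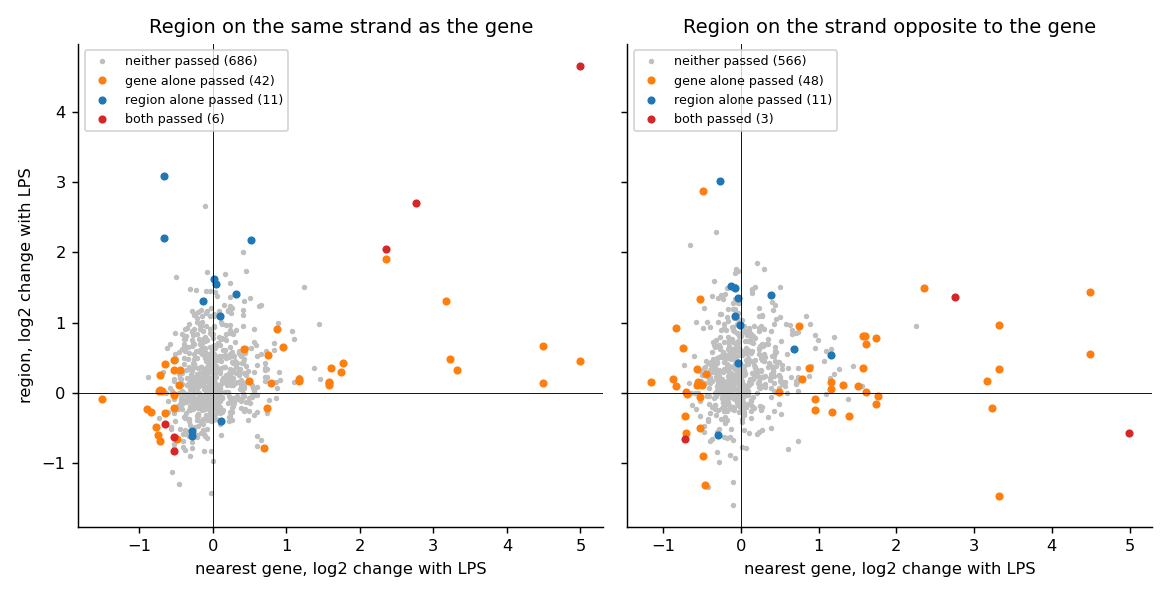
Log2 change with LPS (control siRNA) of each region against its nearest gene, for 745 pairs on the same strand and 628 on opposite strands; colours show which side passed. The pairs in which both passed include the forward strand Trim30a region, on the opposite side of 0 from its gene, and the forward strand Samd9l region (1.37 against 2.76).

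How region and gene moved together is given by strand and position as a description, since regions share genes and arrays. The rank correlation of their changes was 0.22 over the 745 pairs on the same strand and 0.13 over the 628 on opposite strands. It was 0.44 in the 85 same-strand pairs whose gene probe lay inside the region (Pearson's r 0.67). In 3 of these 85 the gene passed with a rise of at least 2-fold, and the regions of those 3 had a median change of 1.91. How far Pearson's r rests on them was not tested. The rank correlation was 0.22 in the 509 same-strand pairs where the region lay downstream and 0.05 in the 151 where it lay upstream. On the opposite strand the values were 0.14, 0.11 and 0.18 over 78, 380 and 170 pairs. Beyond 20 kb it was 0.00 over 691 same-strand and 0.05 over 682 opposite-strand pairs. With slide as a block the same-strand values were 0.30 with the probe inside, 0.20 downstream and -0.01 upstream. The opposite-strand values were then -0.06, 0.06 and 0.20. At the 20 kb limit, the regions just inside, 19994 bp from Lhfpl3, changed by -0.13 (SE 0.53) and 0.65 (SE 0.59), and those just outside, 20100 bp from Frg1 and 20176 bp from Lgals3, by 0.45 (SE 0.40) and -0.58 (SE 0.19).

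The strands of an interval were also compared. Of 392 intervals with both strands tested, 12 passed on 1 strand, 1 on both strands in the same direction (Samd9l) and 1 in opposite directions (Trim30a). The signs agreed in 64.5% and the rank correlation was 0.13. At Ccdc6 forward minus reverse was -3.02 (95% confidence interval -4.26 to -1.78), with the probes standing for both strands well above background on all 12 arrays. The fitted differences at Trim30a (-5.23, interval -7.63 to -2.82) and Arhgap5 (-3.53, interval -5.72 to -1.33) rest on reverse strand probes well above background on 9 of the 12 arrays, so background limits their size. At Arhgap5 neither strand passed; the reverse strand measured 4.69, 4.16 and 18.3 without LPS and 44.3, 55.7 and 56.8 with LPS, and control array 3, on slide 2, was the highest control.

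**Figure D5:**
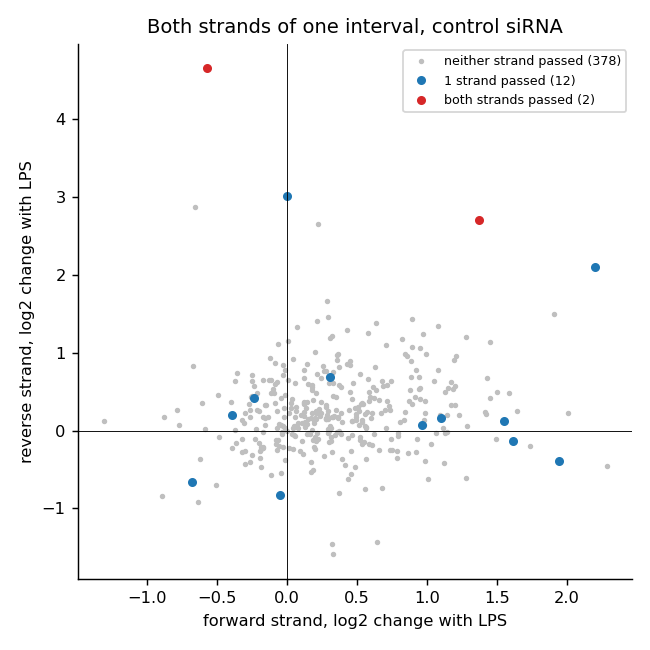
Log2 change with LPS (control siRNA) of the forward strand against the reverse strand for 392 intervals with both strands tested. The 2 intervals that passed on both strands are those at Samd9l (1.37 and 2.71) and Trim30a (-0.57 and 4.65).

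With the siRNA to lincRNA-Tnfaip3, LPS changed 11 of the 1581 regions, 9 upwards and 2 downwards (0.696%, against 1.86% of all features). All 11 were among the 34 that passed with control siRNA. The largest rises were the farther Slc26a11 region (2.7, SE 0.44, adjusted p = 0.0127), which went from 113, 407 and 402 to 2160, 1480 and 1580, and the Ccdc6 region (1.95, SE 0.33, adjusted p = 0.0155). The H2ac15 region rose by 1.82 (SE 0.13, adjusted p = 1.14e-04), the Herc6 region by 1.52 (SE 0.27, adjusted p = 0.0209), the forward strand Samd9l region by 1.43 (SE 0.27, adjusted p = 0.0249) and the Serpinc1 region by 1.35 (SE 0.27, adjusted p = 0.0377). The Cuedc2, Ccnl1 and Mcl1 regions rose too, by 1.26, 1.21 and 0.80. The falls were the Zfp652 region (-0.72, SE 0.13, adjusted p = 0.0249) and the longer Jmy region (-0.48, SE 0.10, adjusted p = 0.0445). The nearest gene passed in the same direction for 2 of the 11, by limma as before. These genes were Herc6 (2.06, adjusted p = 0.00129) and Samd9l (2.12, adjusted p = 0.0121). Cdkn1b passed as well (-0.44, adjusted p = 0.0253) while its region did not. Trim30a (2.66, adjusted p = 0.454), Jmy (-0.50, adjusted p = 0.082) and Zfp652 (-0.53, adjusted p = 0.215) did not pass. The reverse strand Trim30a region went from 6.04, 113 and 127 to 312, 257 and 243 and did not pass (2.61, SE 1.05, adjusted p = 0.414). Array 1 of the unstimulated lincRNA siRNA group was far below the other 2 there. With slide as a block 2 regions passed, 1 of them among the 11. The count was 21 without array 3 of the lincRNA siRNA group, 6 without array 1 or 2, and 4, 3 and 5 without arrays 1, 2 and 3 of that siRNA with LPS; it was 7 without any 1 array of control siRNA with LPS.

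No region passed for the siRNA to lincRNA-Tnfaip3 with LPS, for that siRNA without LPS, or for the interaction of siRNA and LPS, and neither did any other feature (0% called of 23931 in each comparison by limma). At an unadjusted p below 0.05 there were 53 regions with LPS (3.35%, against 4.62% of all features), 256 without LPS (16.2% against 18.6%) and 59 for the interaction (3.73% against 3.74%). The 2 regions of lowest p with LPS were at Irf2bpl (-0.75, adjusted p = 0.472), with 63.3, 49.5 and 60.8 under control siRNA and 31, 36 and 35.9 under lincRNA siRNA, and at Ankrd50 (0.55, adjusted p = 0.64). Without LPS they were the forward strand Trim30a region (-0.57, adjusted p = 0.192) and one at Rps20 (1.48, adjusted p = 0.192). For the interaction they were at Frem3 (-1.24, adjusted p = 0.891) and Mttp (-2.19, adjusted p = 0.891). Without control siRNA array 3, 176 regions passed for the siRNA without LPS and 14 for the interaction; both remaining control arrays are then on slide 1, so slide and group cannot be told apart. Without lincRNA siRNA array 1 or 3, the counts for the siRNA without LPS were 2 and 1.

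For the genes of the pairs above, the promoters were read for the interferon-type motif of 2 copies of GAAA with any 2 bases between them, on either strand, in the 250 bases before and 50 after the start (RefSeq, GRCm38.p6). The motif was in 3.44% of 32851 promoters of that length. All 8 genes had an entry, with 2 entries each for Trim30a and Irf1, while the 3.44% counts promoters and not genes. The motif was in both Trim30a entries, of which 1 is shown, and in neither Irf1 entry. Of the 8 genes, 2 held it, Trim30a and Isg15. Both are interferon-induced genes, and they are shown because the Trim30a region rose with its gene and no Isg15 region passed; capitals mark the motif, and the matches in Isg15 overlap.
Trim30a, chr7:104446076-104446375, reverse strand: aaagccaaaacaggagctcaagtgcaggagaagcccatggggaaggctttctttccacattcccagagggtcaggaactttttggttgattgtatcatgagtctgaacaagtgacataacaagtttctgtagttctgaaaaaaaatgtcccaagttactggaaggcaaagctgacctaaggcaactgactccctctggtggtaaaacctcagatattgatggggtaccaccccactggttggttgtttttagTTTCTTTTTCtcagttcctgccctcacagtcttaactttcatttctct
Isg15, chr4:156200769-156201068, reverse strand: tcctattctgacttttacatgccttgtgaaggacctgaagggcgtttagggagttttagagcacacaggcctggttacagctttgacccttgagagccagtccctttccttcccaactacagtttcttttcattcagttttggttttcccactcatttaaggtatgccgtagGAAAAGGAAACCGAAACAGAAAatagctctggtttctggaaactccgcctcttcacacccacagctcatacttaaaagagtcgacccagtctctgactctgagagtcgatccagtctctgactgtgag
In the promoters of Samd9l, Herc6, Irf1, Cdkn1b, Jmy and Zfp652 these letters were not in the window.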

How the data were processed

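RNA from 12 samples was hybridised to 1-colour Agilent arrays with Cy3 label. The deposited scanner files hold processed spot intensities, made with Agilent Feature Extraction 10.7.1.1 and annotated on mm9, per the file headers; per the submitters' processing notes, Agilent Feature Extraction was used. The deposited series table holds log2 values of the same arrays and served as an alternative.

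Intensities were taken to log2 and each array's 75th percentile was subtracted; control spots and outlier flags were left out. Probes needed at least 10 of 12 values and to be well above background on all 3 arrays of a group. Group means were fitted with limma 3.58.1 (lmFit and eBayes) in R 4.3.3, with all 4 groups sharing 8 residual degrees of freedom and Benjamini-Hochberg adjustment over all 23931 features at 0.05. Region minus nearest gene was fitted the same way over 2837 pairs. Alternatives were background correction, scaling, probe filters, the mean of probes, slide as a block, pairing by replicate number, distance limits of 5 and 10 kb and leaving out arrays.

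A fold "at least" is the bright group's mean over the dim group's mean of the higher of the lowest signal well above background and the probe's own. Of the array's symbols 26582 matched the RefSeq table and 2892 were updated. Replicate numbers were not used to pair the arrays in the main fit, and the labels do not say whether they mark pairs.

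Regions were named as the highest and lowest changes that passed, the regions of lowest p where none passed, pairs that passed on both sides, pairs of lowest p for the difference, regions of the largest gene changes and regions near list genes; the other passing regions and the neighbours said to be looked up were added after their values were seen. The regions and lists were chosen with earlier results of these data known. The number of arrays limits the precision.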

Additional observations from a re-analysis of the deposited data

How the results depend on the processing

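All 34 regions that passed with control siRNA and LPS kept their direction under every alternative that measured them, except with the mean of all kept probes. With that mean the forward strand Trim30a region was at 0.18 and the Cmpk1 region at -0.027. The alternatives used the arrays on which the 34 were chosen, so this agreement in direction is not a separate check. Counts are given in the order of regions changed by LPS with control siRNA (34), regions changed by LPS with lincRNA siRNA (11), pairs changed the same way (8) and pairs that differed (20), where they moved by more than 1.5 times; the cause was not tested. With normexp background correction the pair counts were 4 and 41; 13 of the 34 regions had changes smaller by over 1.5 times and 10 did not pass. The Herc6 region was at 0.28, the forward strand Samd9l region at 0.33, the Mcl1 region at 0.077 and the reverse strand Trim30a region, which still passed, at 2.02, in place of 2.06, 1.37, 1.09 and 4.65. Scaling by the array median gave 6 regions with lincRNA siRNA. With no filter on dim probes the first 3 counts were 21, 5 and 3, with more features tested. The mean of kept probes gave 14 pairs changed the same way; 11 regions were smaller by over 1.5 times or turned and 15 no longer passed, the Ccdc6 region at 1.39, Nr4a1 at 0.27 and Kifc1 at 0.46 among them. With slide as a block the counts were 2, 2, 0 and 5, and within slide 2, with fewer arrays, 1, 1, 0 and 1. Without both slide 1 arrays, an alternative chosen after seeing the data, 4 regions with control siRNA, 0 pairs changed the same way and 5 pairs that differed were left. Limits of 5 kb (18, 5, 5 and 8) and 10 kb (5 regions with lincRNA siRNA, and 5 and 12 pairs) admit fewer regions. Leaving out 1 array at a time gave 16 to 229, 3 to 21, 2 to 30 and 9 to 99; the highest values came without control siRNA array 3, and for the second count without lincRNA siRNA array 3. For the siRNA with LPS the range was 0 to 0, without LPS 0 to 176 and for the interaction 0 to 14, again highest without control siRNA array 3. The labels do not say whether a shared replicate number marks a pair. Deviations of 18 same-number pairs correlated at -0.30 to 0.47, with a median of 0.09 beside 0.02 for other numbers. Of the 12 arrays, 5 correlated best with their own number. The replicate block gave 56 regions with control siRNA and 15 pairs changed the same way. Low signal limits the dimmest regions, some of which were not above background on every array.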

Other observations

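Within the unstimulated lincRNA siRNA group, array 1 lay apart from arrays 2 and 3 in regions that rose with LPS. Arrays 2 and 3 were both above array 1 in 16 of the 24 rising regions. Relative to the mean of the control arrays, the median of the 24 was 0.37 on array 1, 0.68 on array 2 and 0.74 on array 3, on the log2 scale. The reverse strand Trim30a region was at -0.46, 3.76 and 3.93, the reverse strand Samd9l region at -0.25, 1.32 and 1.45, and the gene Isg15 at -0.34, 2.04 and 2.25. No LPS was given to these 3 samples according to the labels. All 3 arrays are on slide 2.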
